A study of Mus musculus with 36 samples.

Results

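A set of 9 genes of transforming growth factor beta (TGF-beta) signalling and of the myofibroblast state, Acta2, Tagln, Cnn1, Tgfb1, Tgfb2, Tgfb3, Tgfbr1, Smad7 and Skil, were followed by symbol across 36 RNA-seq libraries of mouse embryonic fibroblasts (MEFs, fibroblasts grown from mouse embryos). They are 9 of the 36856 symbols in the count table, and all 9 were among the 16065 genes expressed highly enough to test. The cells were WT or PERK-/-, that is, labelled as lacking PERK, the kinase that starts the integrated stress response when the endoplasmic reticulum is stressed. Each genotype received DMSO (the solvent control), Thapsigargin (Tg, which blocks the calcium pump of the endoplasmic reticulum and stresses it), BtdCPU (an activator of the eIF2 alpha kinase HRI), Halofuginone (HF, an inhibitor of prolyl-tRNA synthetase that activates the kinase GCN2), BtdCPU + Thapsigargin, or Halofuginone + Thapsigargin, with 3 libraries in each of the 12 groups. The labels give no dose, treatment time, sex or batch, name no separate lines or clones, and do not say that replicates were separate cultures. P-values therefore measure only the spread between these libraries, which may be technical. The series title places the study in drug activation of a compensating kinase in cells that lack PERK.

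The TGF-beta ligands, encoded by Tgfb1, Tgfb2 and Tgfb3, are secreted in a latent form bound to carrier proteins and are released by integrins and proteases. An active ligand binds the type II receptor, which recruits and phosphorylates the type I receptor encoded by Tgfbr1, and this kinase phosphorylates SMAD2 and SMAD3, which enter the nucleus with SMAD4. Smad7 encodes the inhibitory SMAD that binds the type I receptor and marks it for degradation, and Skil encodes SnoN, a corepressor that sits on SMAD complexes. Both genes are themselves transcribed in response to TGF-beta and so close a feedback loop. In fibroblasts TGF-beta is best known for driving the myofibroblast state, in which smooth muscle alpha-actin (Acta2), transgelin (Tagln) and calponin 1 (Cnn1) are built into contractile stress fibres, largely through serum response factor (SRF) and its cofactors. Halofuginone has long been studied as an antifibrotic compound.

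Promoter sequence, the 250 bases before the annotated start, was available for 5 of the 9 genes in the RefSeq table of build GRCm38.p6: Acta2, Cnn1, Tgfb1, Tgfb2 and Tgfbr1. Tagln, Tgfb3, Smad7 and Skil had no entry. The promoters of Acta2 and Cnn1 are shown because both encode contractile proteins but moved differently here, and that of Tgfb2 because its transcript had the widest range of group means of the 9. Capitals mark, in Acta2, matches to the CArG box (the binding sequence of SRF) and to CATTCC (the core bound by TEAD factors). Up to 1 mismatch to the CArG box was allowed, only between its CC and GG ends, which were kept exact. In Tgfb2 capitals mark matches to CAGAC (a SMAD-binding sequence) and CACGTG (the E-box).
Acta2, chr19:34255374-34255623, minus strand: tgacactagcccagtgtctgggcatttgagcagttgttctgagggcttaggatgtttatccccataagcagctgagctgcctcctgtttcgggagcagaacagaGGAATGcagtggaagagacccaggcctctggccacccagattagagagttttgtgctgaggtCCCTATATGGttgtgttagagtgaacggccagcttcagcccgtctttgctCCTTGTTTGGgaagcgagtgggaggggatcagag
Cnn1, chr9:22099003-22099252, plus strand: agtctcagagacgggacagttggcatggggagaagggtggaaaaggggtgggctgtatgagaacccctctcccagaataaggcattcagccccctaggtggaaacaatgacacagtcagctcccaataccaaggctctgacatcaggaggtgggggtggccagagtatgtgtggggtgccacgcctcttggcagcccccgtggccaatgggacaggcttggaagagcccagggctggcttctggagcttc
Tgfb2, chr1:186705990-186706239, minus strand: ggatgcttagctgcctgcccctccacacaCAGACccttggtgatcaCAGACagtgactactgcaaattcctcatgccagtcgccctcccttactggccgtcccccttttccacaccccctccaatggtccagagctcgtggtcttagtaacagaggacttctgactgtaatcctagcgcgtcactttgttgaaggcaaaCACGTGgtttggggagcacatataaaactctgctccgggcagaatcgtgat
Each sequence is written 5′ to 3′ on the strand of its gene and ends at the base before the start.

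Both strands were searched for 6 motifs, which overlap each other nowhere in these matches. Positions count back from the base before the start, which is -1. Acta2 held CCCTATATGG at -84 and CCTTGTTTGG at -34, each 1 mismatch from a CArG box, with CATTCC (read as GGAATG) at -146 and CAGAC (read as GTCTG) at -235. Tgfb2 held CAGAC at -221 and -204, CACGTG at -51, and at -72 a reverse match to TGACG, the core of cAMP response elements. For Tgfbr1, the window at chr4:47385966-47386215 held CAGAC at -203. That of another annotated start of Tgfbr1, chr4:47352972-47353221, held none of the motifs. None lay in the windows of Cnn1 or Tgfb1 either. Among 32851 promoters of the same length, a CArG box with up to 1 mismatch occurred in 8.59%, an exact CArG box in 1.47%, CATTCC in 12.6%, CAGAC in 42.2%, CACGTG in 6.02%, TGACG in 17.8% and TGATGNAA, a sequence of the kind bound by ATF4 with a C/EBP partner, in 3.45%. These matches describe letters in a window and do not show binding.

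Library totals ran from 32454257 to 37178107 counts. Eif2ak3, the gene of PERK, lay at 16.4 to 110 CPM (counts divided by the scaled library total and set to a common total) in WT libraries and at 7.66 to 35.4 CPM in PERK-/- libraries. Within each treatment every PERK-/- library lay under every WT library. Fibroblast markers summed to 8980 to 20647 CPM per library, with Col1a1, Col1a2 and Vim leading. Their group means ran from 9896 to 18749 CPM, and the part of such shifts in the results was not tested. Between the untreated lines 7 of 9 were called lower in PERK-/- cells, against 24.9% of all tested genes. Among them were Pdgfra at -2.57 (SE 0.183, edgeR adjusted p = 2.69e-13) and Dcn at -1.21 (SE 0.364, edgeR adjusted p = 0.00644) on the log2 scale. The largest fall was that of Lum, at -5.80 (SE 0.811, edgeR adjusted p = 4.47e-07), a gene with group means as low as 0.0995 CPM. Smooth muscle markers summed to 22.0 to 241 CPM, most of it Actg2 (25.5 to 187 CPM as group means), with Lmod1 at 0.962 to 16.6 CPM. The defining genes Myh11, Des and Myocd stayed at or below 1.27, 0.621 and 0.953 CPM. Epithelial markers summed to at most 23.5 CPM, endothelial to at most 5.33, blood to at most 3.97 and skeletal muscle to at most 0.222. The epithelial keratin genes Krt8 and Krt18 lay at 0.104 to 11.2 and 0 to 7.499 CPM as group means. Both were called higher in WT cells with Thapsigargin and with Halofuginone and in untreated PERK-/- cells. Cdh1 was also called higher in WT cells with Thapsigargin (log2 change 3.53) and Halofuginone (3.97), though it stayed at or below 1.079 CPM. Epcam was not tested and stayed at or below 0.169 CPM. The part of this in the results was not tested. The neural list summed to 93.7 to 269 CPM, from Tubb3 and Nes, with Sox2 at 0 in 33 of 36 libraries. The genotypes also differed in Xist, a transcript of the inactive X chromosome, which read 400.5 to 673 CPM in the 18 PERK-/- libraries and at most 0.397 CPM in the 18 WT libraries. The loss of PERK and other differences between the 2 lines therefore cannot be told apart. In bulk RNA, fewer cells in a state and less RNA per cell cannot be told apart either.

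Levels were also taken per kilobase of exon, with all annotated exons of a gene merged, for a rough comparison between genes. Acta2 was by far the most abundant of the 9 in WT DMSO cells, at 950.2 CPM per kb. Tagln followed at 255, and Tgfb3 was the leading ligand at 18.2. Tgfb1 stood at 6.17, Tgfbr1 at 3.68, Smad7 at 3.32 and Skil at 3.14 CPM per kb. Tgfb2 at 0.761 and Cnn1 at 0.740 CPM per kb were the lowest. Across the 12 groups the mean CPM of Tgfb2 spanned 11.2-fold, that of Smad7 9.14-fold, of Skil 8.61-fold and of Tgfb3 7.13-fold, against 2.17-fold for Tgfb1.

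**Figure D1:**
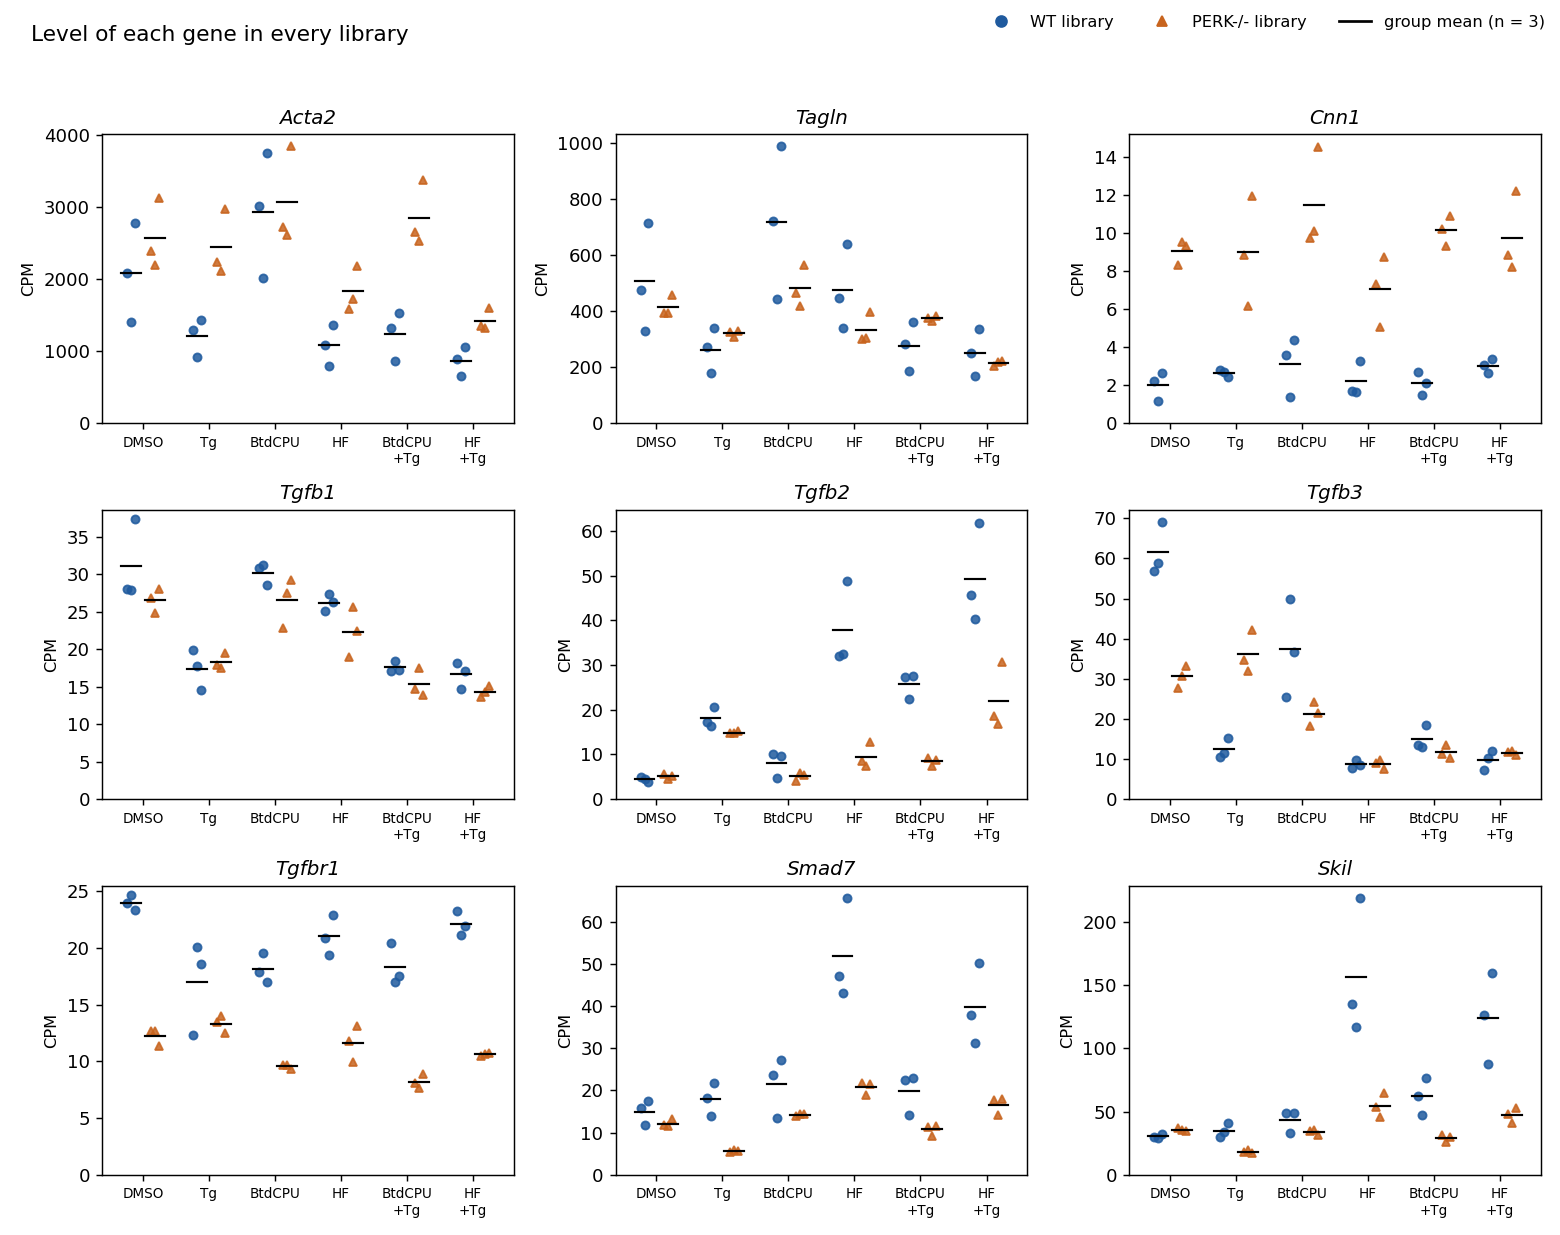
CPM of each gene (vertical axis, linear from 0, scaled per gene) in all 36 libraries by treatment, with circles for WT, triangles for PERK-/- and bars for group means of 3 libraries. Tgfb3 in WT cells drops from 56.9 to 69.0 CPM in DMSO to 7.80 to 9.67 CPM with Halofuginone, and Cnn1 is higher in every PERK-/- library than in every WT library.

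The 9 genes were compared between groups with edgeR, and a gene was called changed below an adjusted p of 0.05. In WT cells Thapsigargin changed 6 of 9 (Tgfb2 higher; Acta2, Tagln, Tgfb1, Tgfb3 and Tgfbr1 lower), against 47.6% of all tested genes. Halofuginone changed 5 (Tgfb2, Smad7 and Skil higher, Acta2 and Tgfb3 lower), against 68.2%, a lower share of the 9 than of all genes. BtdCPU changed 3 (Tgfb2 higher, Tgfb3 and Tgfbr1 lower), against 22.2% (12.9% higher), a count that rested on single libraries. It was 0 without WT BtdCPU replicate 1, 8 without its replicate 2, 1 without its replicate 3 and 5 without WT DMSO replicate 3. The BtdCPU and Halofuginone comparisons share the same DMSO libraries. Halofuginone differed directly from BtdCPU in the 5 genes it changed against DMSO and in the same directions, against 64.4% of all genes (32.4% higher and 31.9% lower). Tagln and Cnn1 passed there as well without WT BtdCPU replicate 2 (-0.85 and -0.85) or WT Halofuginone replicate 3 (-0.89 and -0.91).

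In PERK-/- cells Thapsigargin changed 4 of 9 (Tgfb2 higher; Tgfb1, Smad7 and Skil lower), against 27.9% of all genes. Halofuginone changed 4 (Tgfb2, Smad7 and Skil higher, Tgfb3 lower), against 42.2%, and 2 without PERK-/- Halofuginone replicate 3. BtdCPU called 0 of 9 with edgeR, against 3.59% (2.55% higher and 1.04% lower), and DESeq2 also called 0, while 2 genes (Tgfb3 and Tgfbr1) had an unadjusted p below 0.05. Their PERK-/- BtdCPU libraries all lay below DMSO, at 18.2, 24.1 and 21.6 CPM for Tgfb3 and 9.69, 9.64 and 9.34 CPM for Tgfbr1. Halofuginone differed from BtdCPU in 5 genes (Tgfb2, Smad7 and Skil higher, Acta2 and Tgfb3 lower), against 36.1%. The count was 3 without PERK-/- BtdCPU replicate 3, Halofuginone replicate 1 or Halofuginone replicate 3. There Smad7 (0.54 (SE 0.211, edgeR adjusted p = 0.0436)) was lost without any library except Halofuginone replicate 2, and Acta2 (-0.74 (SE 0.247, edgeR adjusted p = 0.0183)) without BtdCPU replicate 3 (-0.53), Halofuginone replicate 1 (-0.64) or Halofuginone replicate 2 (-0.69).

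On top of Thapsigargin, adding BtdCPU to WT cells changed 1 of the 9, Skil, against 2.32% of all genes (1.29% higher and 1.02% lower). The count was 0 without WT BtdCPU + Thapsigargin replicate 3 or WT Thapsigargin replicate 1 or 2. Adding Halofuginone changed 4 (Tgfb2, Tgfbr1, Smad7 and Skil, all higher), against 45.3%. In PERK-/- cells adding BtdCPU changed 5 (Smad7 and Skil higher; Tgfb2, Tgfb3 and Tgfbr1 lower), against 35.6%, and adding Halofuginone changed 7 (Tgfb2, Smad7 and Skil higher; Acta2, Tgfb1, Tgfb3 and Tgfbr1 lower), against 52.7%. That last count of 7 did not hold with any library of the comparison left out. It was 4 without PERK-/- Thapsigargin replicate 2 or replicate 3, and 5 without any other. Each pair of comparisons shares its Thapsigargin libraries. Between untreated genotypes 3 genes differed (Cnn1 higher in PERK-/- cells, Tgfb3 and Tgfbr1 lower), against 49.5%. The responses themselves differed between genotypes in 4 genes for Thapsigargin (against 38.1%), 4 for Halofuginone (35.0%), 3 for added BtdCPU (20.8%; with DESeq2 4, Smad7 included) and 3 for added Halofuginone (32.7%). For BtdCPU alone edgeR called 0 of 9 (against 0.199%, with 0.0373% higher and 0.162% lower), as did DESeq2, with 2 genes, Tgfb2 and Skil, at an unadjusted p below 0.05. Without WT BtdCPU replicate 2 the Tgfb2 difference passed (-1.18).

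**Figure D2:**
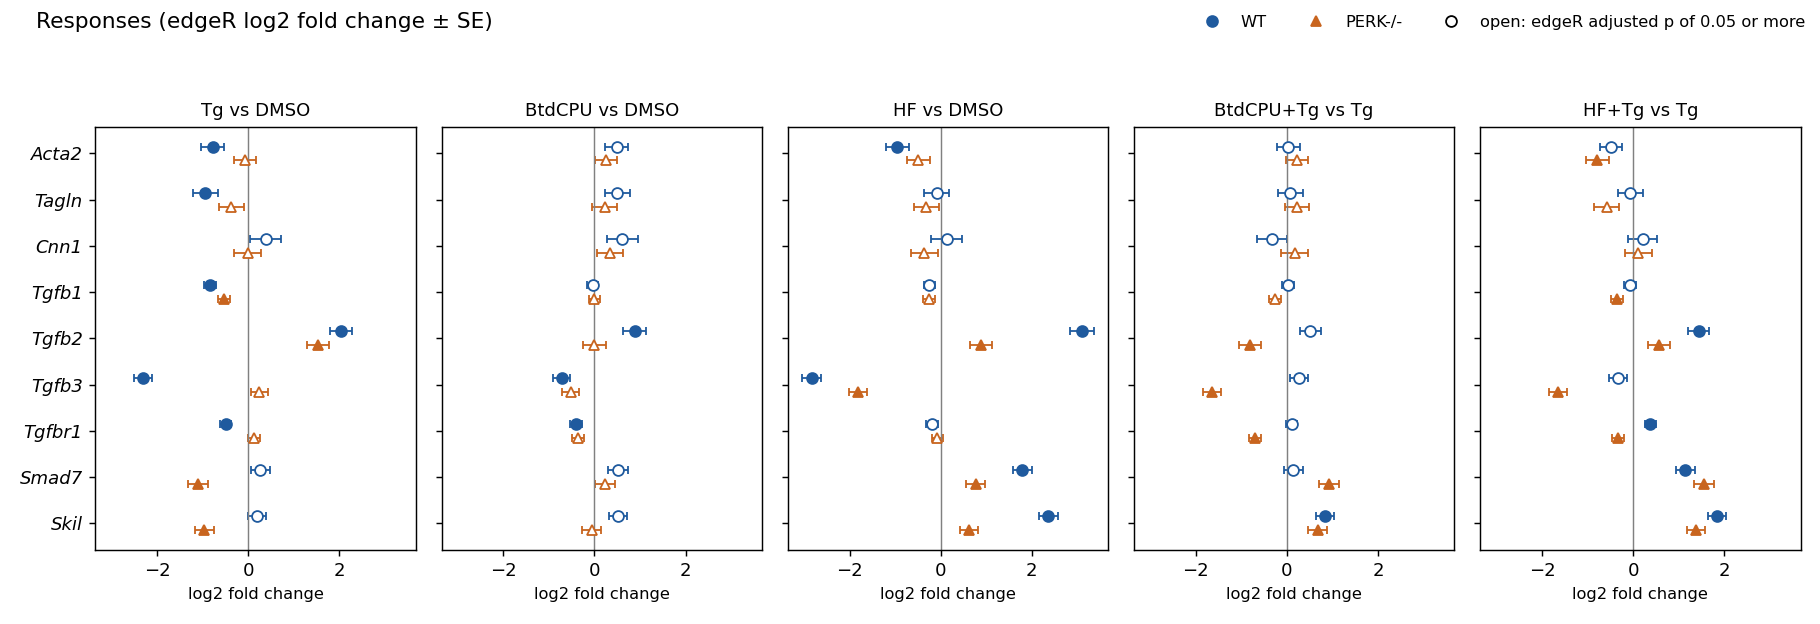
Log2 fold change (horizontal axis) with its SE for the 9 genes in 5 comparisons, circles for WT and triangles for PERK-/-, filled where the edgeR adjusted p is below 0.05. Skil and Smad7 lie right of 0 for Halofuginone in both genotypes, and Tgfb3 with Thapsigargin is filled in WT cells (-2.31) and open in PERK-/- cells (0.24).

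Acta2, which encodes smooth muscle alpha-actin, read 2083, 1400.5 and 2776 CPM in the WT DMSO libraries, 1293, 914 and 1434 CPM with Thapsigargin, and 1081, 795 and 1367 CPM with Halofuginone. The Halofuginone libraries all lay below the DMSO libraries, while the highest Thapsigargin library passed the lowest DMSO library. Acta2 fell 41.8% with Thapsigargin, a log2 change of -0.78 (SE 0.248, edgeR adjusted p = 0.010005). With Halofuginone the change was -0.95 (SE 0.248, edgeR adjusted p = 0.00122). The Thapsigargin call was lost without WT DMSO replicate 3 (-0.52) or WT Thapsigargin replicate 2 (-0.66). BtdCPU libraries read 3017, 2015 and 3749 CPM, overlapping DMSO, and the change of 0.49 did not pass (edgeR adjusted p = 0.160), although it passed without WT BtdCPU replicate 2 (0.70) or WT DMSO replicate 3 (0.75). Halofuginone against BtdCPU gave -1.44 (SE 0.251, edgeR adjusted p = 9.55e-06), with no overlap.

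PERK-/- libraries gave Acta2 values of 2391, 2200.3 and 3130.3 CPM in DMSO and 2242, 2112 and 2971 CPM with Thapsigargin. The log2 change was -0.08 (SE 0.246, edgeR adjusted p = 0.874), and its difference from the WT change, 0.71 (SE 0.348, edgeR adjusted p = 0.112), did not pass with all libraries, but passed without WT DMSO replicate 2 (0.93). Halofuginone libraries at 1593, 1725 and 2179.6 CPM lay below all DMSO libraries, with a change of -0.49 (SE 0.247, edgeR adjusted p = 0.111) that did not pass either. Added to Thapsigargin, Halofuginone lowered Acta2 to 1349, 1320.3 and 1595 CPM, with no overlap. That change was -0.78 (SE 0.247, edgeR adjusted p = 0.00862) and was lost without PERK-/- Thapsigargin replicate 3 (-0.59). In WT cells the same addition moved Acta2 from the Thapsigargin values above to 892, 661 and 1058 CPM, which overlap. There it did not pass, at -0.48 (SE 0.247, edgeR adjusted p = 0.114), although it did without WT Thapsigargin replicate 2 (-0.67). In that comparison same-numbered libraries deviated together, and with the replicate number as a block the change was -0.48 with edgeR adjusted p = 1.01e-07.

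Tagln, which encodes the actin-binding protein transgelin, read 475, 329.6 and 715 CPM in WT DMSO libraries and 271, 178 and 341 CPM with Thapsigargin. The 2 groups overlapped by a narrow margin, and the log2 change of -0.94 (SE 0.274, edgeR adjusted p = 0.00520) passed but was lost without WT DMSO replicate 3 (-0.61). With Halofuginone the WT libraries read 449, 341 and 639 CPM, all within the DMSO range (log2 change -0.09, edgeR adjusted p = 0.786). No treatment comparison called Tagln in PERK-/- cells. DMSO libraries read 394, 393 and 458 CPM, Thapsigargin libraries 325, 308 and 329 CPM, and Halofuginone with Thapsigargin 206, 217 and 223 CPM. The last group lay below all others of its genotype, and its change from Thapsigargin was -0.58 (SE 0.273, edgeR adjusted p = 0.0758). WT BtdCPU libraries read 720.5, 442 and 989.7 CPM, and their change of 0.50 did not pass (edgeR adjusted p = 0.194). It passed without the filter on low counts, with the replicate number as a block, and without WT BtdCPU replicate 2 (0.75) or WT DMSO replicate 3 (0.83). In the annotation of build GRCm38, Tagln overlaps Pcsk7 on the opposite strand (25.5 to 122 CPM as group means). The libraries were strand-specific per the labels, but use of strand in counting is not given in the sources used here.

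Cnn1, which encodes the thin-filament protein calponin 1, was low in WT cells, at 2.23, 1.18 and 2.66 CPM in DMSO, and did not exceed 4.36 CPM in any WT library. PERK-/- DMSO libraries read 8.33, 9.51 and 9.31 CPM, and the lowest PERK-/- library of any treatment read 5.05 CPM. The untreated genotypes differed by a log2 value of 2.16 (SE 0.325, edgeR adjusted p = 1.52e-06), 4.48-fold. No treatment comparison called Cnn1, with changes from -0.70 to 0.61, the last of which passed without WT BtdCPU replicate 2 (0.98). The difference between the lines was seen at every treatment, while Acta2 and Tagln did not differ between untreated genotypes past the threshold (edgeR adjusted p = 0.321 and 0.400).

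Among the ligands, Tgfb3 was the most abundant in DMSO cells and had the largest falls. WT DMSO libraries read 56.9, 59.0 and 69.0 CPM, against 10.6, 11.4 and 15.3 CPM with Thapsigargin and 7.80, 9.67 and 8.45 CPM with Halofuginone. Neither treated group came near the controls, and the log2 changes were -2.31 (SE 0.197, edgeR adjusted p = 3.5e-11) and -2.83 (SE 0.203, edgeR adjusted p = 1.74e-13), decreases of 79.9% and 86.0%. BtdCPU libraries read 25.5, 49.9 and 36.6 CPM, all below DMSO but widely spread. The BtdCPU change was -0.72 (SE 0.187, edgeR adjusted p = 0.00522) and was lost without WT BtdCPU replicate 1 (-0.51). Adding either compound to Thapsigargin left WT libraries at 7.30 to 18.4 CPM, with changes of 0.27 and -0.33 that did not pass.

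Tgfb3 in PERK-/- cells started lower, at 27.8, 30.8 and 33.2 CPM in DMSO, 50.3% below WT, a log2 difference of -1.01 (SE 0.188, edgeR adjusted p = 3.98e-05). With Thapsigargin these cells read 34.7, 31.8 and 42.2 CPM, overlapping their controls, and the change of 0.24 did not pass (edgeR adjusted p = 0.368). The difference from the WT response was 2.56 (SE 0.270, edgeR adjusted p = 6.87e-09), the largest such difference of the 9 genes. When BtdCPU was added to Thapsigargin, PERK-/- libraries fell to 11.2, 13.5 and 10.3 CPM, and with added Halofuginone to 11.7, 11.9 and 11.1 CPM. The log2 changes were -1.64 (SE 0.194, edgeR adjusted p = 7.9e-08) and -1.65 (SE 0.194, edgeR adjusted p = 1.71e-08). WT cells given the same agents read 13.5, 13.0 and 18.4 CPM and 7.30, 10.2 and 12.1 CPM. The genotypes differed in both responses, by -1.91 (SE 0.273, edgeR adjusted p = 5.61e-06) and -1.31 (SE 0.274, edgeR adjusted p = 0.000354). Halofuginone alone gave 9.01, 9.86 and 7.43 CPM, a change of -1.80 (SE 0.197, edgeR adjusted p = 9.29e-09). Tgfb3 overlaps Ttll5 on the opposite strand in the GRCm38 annotation (19.5 to 58.8 CPM as group means), and reads of the 2 genes could not be told apart if strand was not used.

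Tgfb2 moved the other way. It read 4.97, 4.44 and 3.81 CPM in WT DMSO libraries, 17.2, 16.4 and 20.6 CPM with Thapsigargin and 32.0, 32.6 and 48.9 CPM with Halofuginone. Both treated groups lay wholly above the controls. The rises were 4.10-fold and 8.57-fold, log2 changes of 2.04 (SE 0.251, edgeR adjusted p = 6e-08) and 3.10 (SE 0.256, edgeR adjusted p = 4.05e-12). With BtdCPU the libraries read 10.1, 4.62 and 9.72 CPM, of which replicate 2 stayed inside the DMSO range. This rise of 0.88 (SE 0.253, edgeR adjusted p = 0.0111) was lost without WT BtdCPU replicate 1 (0.70) or replicate 3 (0.73). Halofuginone on top of Thapsigargin raised WT cells to 45.7, 40.2 and 61.8 CPM, the highest group for this gene, by 1.44 (SE 0.233, edgeR adjusted p = 7.18e-06).

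Tgfb2 responded to Thapsigargin in PERK-/- cells as well, from 5.57, 4.55 and 5.27 CPM in DMSO to 14.7, 14.7 and 15.1 CPM, a log2 change of 1.53 (SE 0.246, edgeR adjusted p = 1.29e-05). The difference from the WT response, -0.50, did not pass (edgeR adjusted p = 0.267). Halofuginone alone gave 8.42, 7.36 and 12.7 CPM in these cells, a change of 0.89 (SE 0.247, edgeR adjusted p = 0.00409) that was lost without PERK-/- Halofuginone replicate 3 (0.63). The PERK-/- change differed from that of WT cells by -2.21 (SE 0.349, edgeR adjusted p = 1.33e-05). BtdCPU added to Thapsigargin lowered Tgfb2 in PERK-/- cells to 9.23, 7.46 and 8.78 CPM, a change of -0.81 (SE 0.238, edgeR adjusted p = 0.00804), which was lost without PERK-/- BtdCPU + Thapsigargin replicate 2 (-0.68). WT cells given the same addition read 27.4, 22.4 and 27.6 CPM, above their Thapsigargin libraries (change 0.51, edgeR adjusted p = 0.245). The 2 genotypes differed in this response by -1.32 (SE 0.332, edgeR adjusted p = 0.00418).

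Tgfb2 under Halofuginone with Thapsigargin in PERK-/- cells read 18.7, 16.9 and 30.6 CPM, with replicate 3 far above the other two. The rise of 0.57 (SE 0.232, edgeR adjusted p = 0.0388) over Thapsigargin was lost when any of 4 of the 6 libraries was left out: the Halofuginone + Thapsigargin replicate 3 (0.29) or any Thapsigargin replicate (0.56, 0.60 and 0.61). Its difference from the WT response, -0.87 (SE 0.326, edgeR adjusted p = 0.0387), was lost when any of 8 of 12 libraries was left out, with a range of -1.14 to -0.66 over all 12. The 8 were all 6 Thapsigargin libraries except WT replicate 3, PERK-/- Halofuginone + Thapsigargin replicates 1 and 2, and WT Halofuginone + Thapsigargin replicate 3.

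Tgfb1, the ligand gene most often studied in fibrosis, varied least. WT libraries read 28.1, 27.9 and 37.4 CPM in DMSO and 19.9, 17.7 and 14.5 CPM with Thapsigargin, with no overlap and a log2 change of -0.84 (SE 0.128, edgeR adjusted p = 2.27e-06). PERK-/- libraries read 26.9, 24.8 and 28.1 CPM and 17.9, 17.5 and 19.5 CPM, a change of -0.54 (SE 0.127, edgeR adjusted p = 0.00157). The difference between these falls was 0.30 (edgeR adjusted p = 0.190). Neither BtdCPU (-0.04 and -0.00) nor Halofuginone (-0.25 and -0.25 in WT and PERK-/- cells) passed the threshold alone. The WT Halofuginone change passed without WT DMSO replicate 1 (-0.32) or replicate 2 (-0.32), and the PERK-/- one without PERK-/- Halofuginone replicate 2 (-0.36). The change of -0.35 (SE 0.129, edgeR adjusted p = 0.0220) with added Halofuginone in PERK-/- cells held with Thapsigargin replicate 1 or Halofuginone + Thapsigargin replicate 3 left out, and not with any of the other 4 libraries left out, over a range of -0.37 to -0.27.

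Per kilobase, the 3 ligand transcripts changed places. In WT DMSO cells Tgfb3 made up 72.5% ± 0.908 (SD, n = 3) of the summed ligand CPM per kb, Tgfb1 24.4% and Tgfb2 3.08%. With Halofuginone the Tgfb2 share was 45.3% ± 6.19 and the Tgfb3 share 18.01%, and with Halofuginone and Thapsigargin Tgfb2 held 57.4% ± 3.32. The sum itself was 25.2 CPM per kb in WT DMSO cells, 10.2 with Thapsigargin and 14.3 with Halofuginone. Untreated PERK-/- cells also had Tgfb3 in the lead, with 59.5%, and with Thapsigargin it held 63.2%. With Halofuginone Tgfb1 led there at 51.0%, and with Halofuginone and Thapsigargin Tgfb2 at 37.2% ± 7.55 lay close to Tgfb3 at 34.4% ± 5.20. These shares are group means of mRNA and are a description, with no test. They depend on the merged length of all annotated exons, 5042 bases for Tgfb1, 5791 for Tgfb2 and 3383 for Tgfb3. The transcripts made in these cells may be shorter, and other lengths would change the shares and could change their order.

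**Figure D3:**
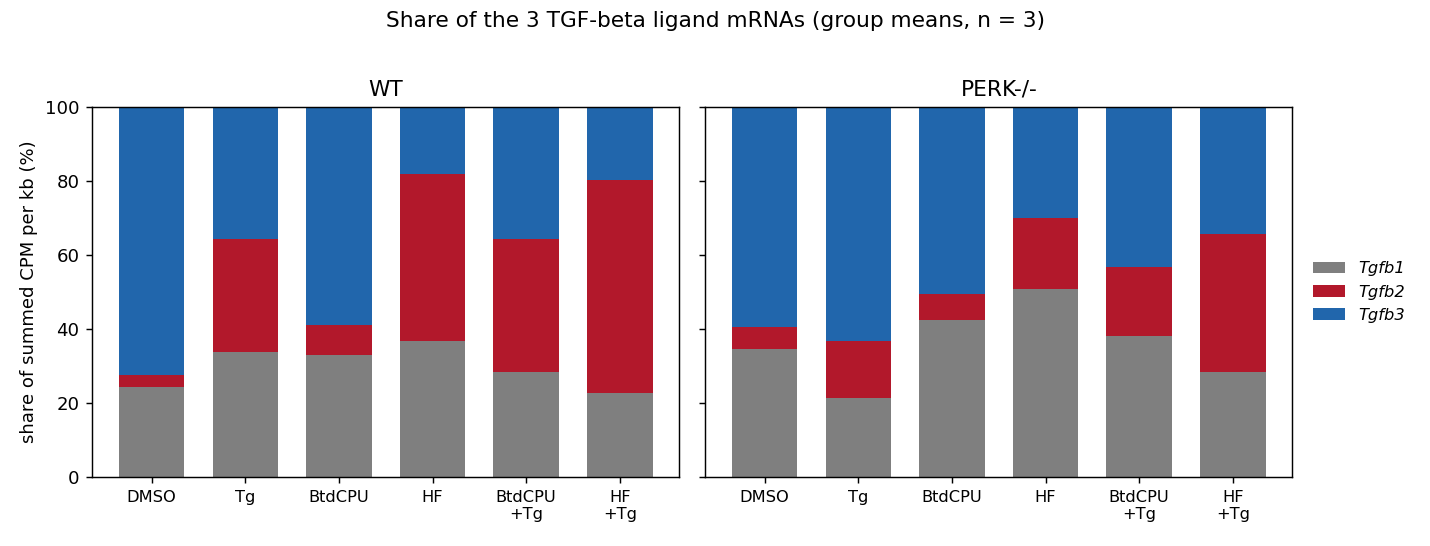
Share of the summed CPM per kb (vertical axis, percent) held by each ligand gene, as stacked group means of 3 libraries for 6 treatments in WT and PERK-/- cells. Tgfb3 holds 72.5% in WT DMSO cells and 18.01% with Halofuginone, where Tgfb2 holds 45.3%.

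Tgfbr1, the type I receptor kinase, separated the genotypes. WT DMSO libraries read 24.0, 24.6 and 23.4 CPM and PERK-/- DMSO libraries 12.7, 12.6 and 11.4 CPM, a tight and non-overlapping pair of groups with a log2 difference of -0.97 (SE 0.127, edgeR adjusted p = 1.21e-07). In WT cells Thapsigargin libraries read 12.3, 20.1 and 18.6 CPM, all below DMSO, a change of -0.50 (SE 0.125, edgeR adjusted p = 0.00147) with replicate 1 lowest. That change was -0.32 without WT Thapsigargin replicate 1 and was called with each library left out in turn. BtdCPU libraries read 17.9, 19.6 and 17.0 CPM, and their change of -0.40 (SE 0.125, edgeR adjusted p = 0.0189) was lost without WT BtdCPU replicate 1 (-0.39) or replicate 3 (-0.36), or without WT DMSO replicate 2 (-0.38). Added to Thapsigargin, Halofuginone gave WT libraries of 23.2, 21.2 and 21.9 CPM, a rise of 0.38 (SE 0.125, edgeR adjusted p = 0.0138) that was lost without WT Thapsigargin replicate 1 (0.19) or WT Halofuginone + Thapsigargin replicate 1 (0.34).

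In PERK-/- cells Thapsigargin gave Tgfbr1 values of 13.5, 14.05 and 12.5 CPM, with a change of 0.12 that did not pass, and the genotypes differed in their responses by 0.62 (SE 0.178, edgeR adjusted p = 0.00594). BtdCPU on top of Thapsigargin lowered Tgfbr1 to 8.08, 7.68 and 8.86 CPM, the lowest group of all 12, with a change of -0.70 (SE 0.129, edgeR adjusted p = 6.81e-05). Halofuginone on top of Thapsigargin gave 10.5, 10.7 and 10.8 CPM, also clear of the Thapsigargin libraries. That change, -0.33 (SE 0.127, edgeR adjusted p = 0.0313), was kept without PERK-/- Thapsigargin replicate 3 and lost without any of the other 5 libraries (range -0.34 to -0.25). Both responses differed from those of WT cells, by -0.81 (SE 0.179, edgeR adjusted p = 0.00137) with BtdCPU and -0.70 (SE 0.178, edgeR adjusted p = 0.00254) with Halofuginone.

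The feedback inhibitors Smad7 and Skil rose with Halofuginone in both genotypes, alone and added to Thapsigargin. Smad7 read 15.8, 11.7 and 17.5 CPM in WT DMSO libraries and 47.2, 43.1 and 65.6 CPM with Halofuginone, 3.47-fold higher with no overlap. That change was 1.79 (SE 0.214, edgeR adjusted p = 9.82e-09). Skil, encoding SnoN, read 29.5, 29.4 and 32.3 CPM and 135, 117 and 218 CPM, 5.15-fold higher, a log2 change of 2.36 (SE 0.206, edgeR adjusted p = 1.36e-11). Added to Thapsigargin, Halofuginone raised Smad7 from 18.1, 13.9 and 21.9 CPM to 37.8, 31.3 and 50.3 CPM and Skil from 29.9, 33.4 and 40.9 CPM to 126, 87.2 and 159 CPM. Both pairs of groups were clear of each other, with changes of 1.15 (SE 0.210, edgeR adjusted p = 4.2e-05) and 1.84 (SE 0.202, edgeR adjusted p = 1.14e-08). BtdCPU alone gave Skil 49.2, 33.0 and 48.5 CPM, just above the DMSO libraries, and a change of 0.52 that missed the threshold (edgeR adjusted p = 0.0592). Without WT BtdCPU replicate 2 it passed (0.68), as did Smad7 (0.76, from 0.52 with all libraries).

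BtdCPU on top of Thapsigargin gave WT Skil values of 62.1, 47.6 and 76.4 CPM, above all Thapsigargin libraries. The rise of 0.84 (SE 0.198, edgeR adjusted p = 0.0214) was lost without BtdCPU + Thapsigargin replicate 3 (0.65), Thapsigargin replicate 1 (0.74) or Thapsigargin replicate 2 (0.80).

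Thapsigargin lowered both inhibitors in PERK-/- cells. Smad7 read 11.7, 11.6 and 13.2 CPM in DMSO and 5.50, 5.84 and 5.71 CPM with Thapsigargin, and Skil 36.7, 35.3 and 34.5 CPM and 17.7, 19.5 and 17.4 CPM. Each pair was far apart relative to its narrow spread, and the log2 changes were -1.10 (SE 0.222, edgeR adjusted p = 0.000281) and -0.96 (SE 0.202, edgeR adjusted p = 0.000429). In WT cells neither passed (0.26 and 0.19), and the differences between genotypes, -1.36 (SE 0.306, edgeR adjusted p = 0.000659) and -1.16 (SE 0.284, edgeR adjusted p = 0.00152), did. Both added compounds raised the pair again in PERK-/- cells. With BtdCPU Smad7 reached 11.3, 9.20 and 11.7 CPM and Skil 31.3, 26.0 and 29.8 CPM, rises of 0.92 (SE 0.222, edgeR adjusted p = 0.00150) and 0.67 (SE 0.202, edgeR adjusted p = 0.00902). With Halofuginone Smad7 reached 17.6, 14.3 and 18.1 CPM and Skil 48.4, 41.3 and 53.1 CPM, rises of 1.55 (SE 0.221, edgeR adjusted p = 5.53e-07) and 1.39 (SE 0.203, edgeR adjusted p = 8.38e-07).

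Halofuginone alone raised both genes less in PERK-/- cells than in WT cells. Smad7 read 21.7, 19.0 and 21.6 CPM and Skil 53.3, 46.0 and 64.8 CPM, changes of 0.77 (SE 0.212, edgeR adjusted p = 0.00375) and 0.62 (SE 0.198, edgeR adjusted p = 0.0112). The Skil call was lost without PERK-/- Halofuginone replicate 3 (0.49). The genotype differences in this response were -1.02 (SE 0.297, edgeR adjusted p = 0.00791) for Smad7 and -1.74 (SE 0.281, edgeR adjusted p = 1.77e-05) for Skil. Halofuginone also lay above BtdCPU directly in WT cells, by 1.28 for Smad7 and 1.85 for Skil (edgeR adjusted p = 3.79e-06 and 2.26e-09).

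Replicate number ran through several of these genes. In all 6 WT groups replicate 2 had the lowest and replicate 3 the highest Acta2, Tagln and Smad7. The highest library exceeded the lowest by 1.57 to 1.98-fold for Acta2, 1.87 to 2.24-fold for Tagln and 1.496 to 2.002-fold for Smad7. Replicate 3 of PERK-/- cells was highest in all 6 groups for Acta2 and Tagln, with narrower spreads of 1.21 to 1.47-fold and 1.05 to 1.35-fold. The labels do not say what a replicate number stands for. Between same-numbered WT libraries, Acta2 and Tagln were lower with Thapsigargin and higher with BtdCPU in 3 of 3 pairs. With Halofuginone Acta2 was higher in 0 of 3 pairs and Tagln in 1 of 3. The main tests did not use this order, so their SEs for Acta2, Tagln and Smad7 include it. Tgfb1 showed no such order, with each replicate number lowest in 2 of 6 WT groups.

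**Figure D4:**
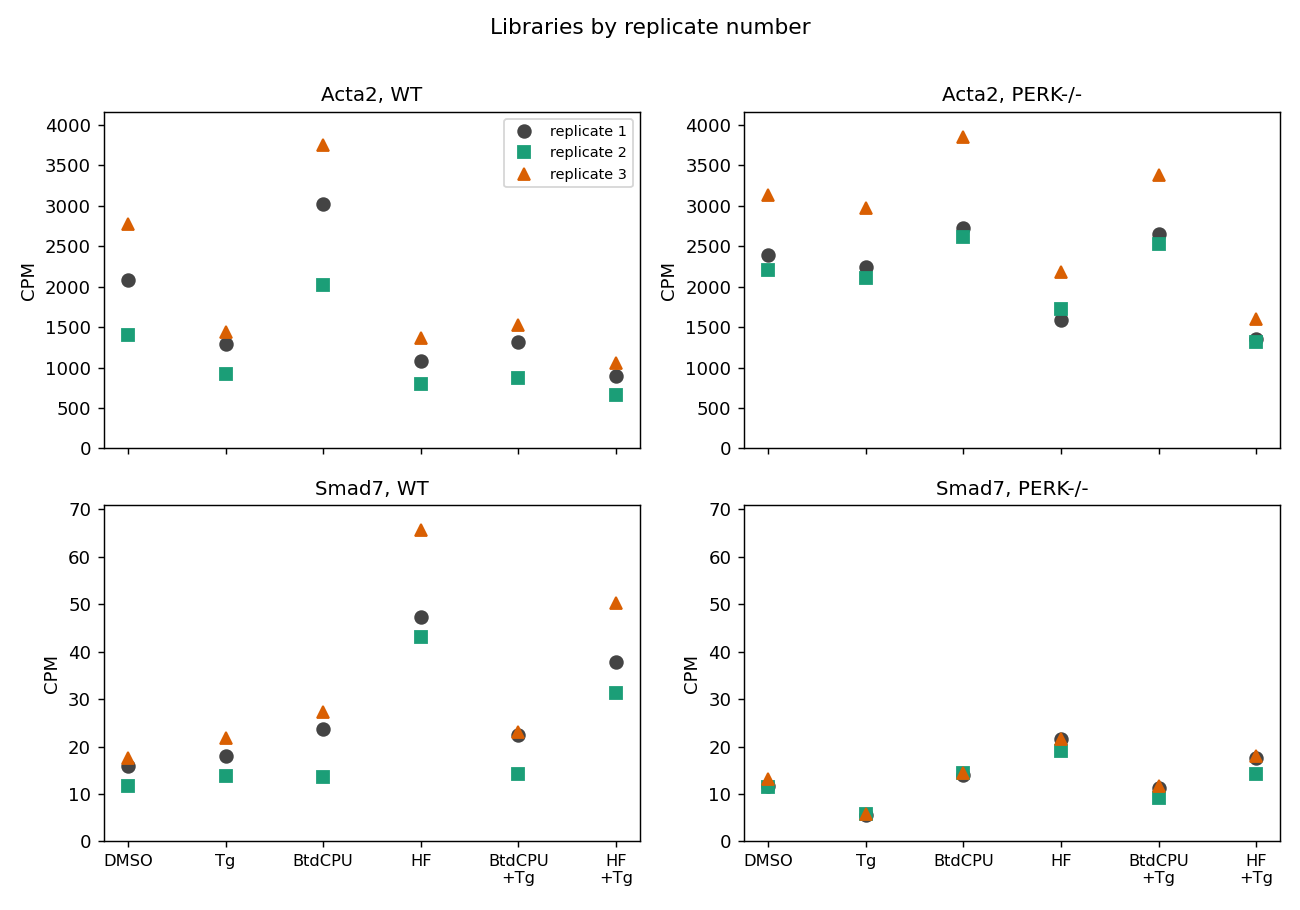
CPM of Acta2 and Smad7 (vertical axis, from 0) by treatment in WT and PERK-/- cells, with the marker giving the replicate number. In WT cells replicate 3 is highest and replicate 2 lowest in all 6 treatments for both genes.

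Ordered by mean level over the 12 groups, most neighbouring groups overlapped: 11 of 11 neighbouring pairs for Acta2, 10 of 11 for Tagln, Cnn1 and Tgfb1, 9 of 11 for Tgfb3 and Skil, and 8 of 11 for Tgfb2, Tgfbr1 and Smad7. Acta2 was highest with BtdCPU, at 3065 ± 682 CPM (SD, n = 3) in PERK-/- and 2927 ± 871 CPM (SD, n = 3) in WT cells, and lowest in WT cells given Halofuginone with Thapsigargin, at 870.2 ± 199 CPM (SD, n = 3). Tgfb2 had its highest mean in that last group, at 49.2 ± 11.2 CPM (SD, n = 3). Across the 12 group means of log2 CPM, Pearson r was -0.87 between Acta2 and Tgfb2, 0.96 between Smad7 and Skil, 0.87 between Tagln and Tgfb1, and -0.92 between Cnn1 and Tgfbr1, where the 2 genotypes lie apart. These values describe 12 groups that share 2 cell lines and 6 treatments.

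The search covered 10228 tested genes whose average log2 CPM reached 2. The group means most like those of Acta2 belonged to Hsp90ab1 (r = 0.984), Man2a2 (0.984) and Arsb (0.981). For Tagln they were Lrp1 (0.958), Cap1 (0.958) and Plbd2 (0.949), and for Cnn1 Xist (0.977), Gfm2 (0.976) and Adamtsl3 (0.974). For Tgfb1 they were Oaf (0.981), Wdr1 (0.962) and Vezt (0.961), for Tgfb2 Hcfc2 (0.980), Tnks (0.973) and Zfp703 (0.960), and for Tgfb3 Dsel (0.970), Fbxo21 (0.969) and St6galnac6 (0.969). Tgfbr1 was most like the sphingosine 1-phosphate receptor gene S1pr3 (0.974), Tshz1 (0.967) and S1pr2 (0.965). Smad7 was most like LOC105246491 (0.995), Pgs1 (0.988) and Xpo6 (0.985), and Skil like Ccrn4l (0.982) and Usp7 (0.981). Each r is Pearson's over 12 groups, with no test.

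The wider pathway was read from lists of genes. Of 15 TGF-beta target genes, Halofuginone in WT cells called 11 higher and 2 lower, with a median log2 change of 1.17, against 34.7% higher and 33.4% lower and a median of 0.00 over all tested genes. Ctgf, a matricellular protein gene, changed by 2.57 (SE 0.325, edgeR adjusted p = 3.44e-08). Fibronectin (Fn1) changed by 1.48 (SE 0.236, edgeR adjusted p = 1.99e-06). Il11, a profibrotic cytokine gene, had the largest rise at 5.65 (SE 0.231, edgeR adjusted p = 9.82e-19), and the repressor gene Snai1 the largest fall at -1.80 (SE 0.203, edgeR adjusted p = 3.24e-09). Periostin (Postn) did not pass, at -0.19. In PERK-/- cells 9 were higher and 1 lower, with a median of 0.46, against 21.2% and 21.0% of all genes. The largest rise was Snai2 at 1.94 (SE 0.192, edgeR adjusted p = 1.39e-09), and Il11 rose by 1.63 (SE 0.222). The 2 Il11 responses differed by -4.03 (SE 0.309, edgeR adjusted p = 8.18e-11).

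With Thapsigargin 3 target genes rose and 9 fell in WT cells (median -0.39, against 0.02 over all genes, of which 24.9% rose and 22.7% fell). Ctgf changed by -1.49 (SE 0.316, edgeR adjusted p = 0.000243), while Snai2 rose the most, at 2.63 (SE 0.198, edgeR adjusted p = 2.44e-12), and Snai1 fell the most, at -1.66 (SE 0.201, edgeR adjusted p = 4.71e-08). In PERK-/- cells 4 rose and 4 fell (median -0.40, against 15.2% and 12.7% of all genes). There Ctgf changed by -3.77 (SE 0.352, edgeR adjusted p = 8.79e-10), with a genotype difference of -2.28 (SE 0.452, edgeR adjusted p = 0.000148), and Tgfbi rose the most, at 1.77 (SE 0.165, edgeR adjusted p = 7.92e-10). Postn fell in WT and rose in PERK-/- cells, with changes of -0.56 (SE 0.128, edgeR adjusted p = 0.000515) and 0.37 (SE 0.128, edgeR adjusted p = 0.0286) and a difference of 0.93 (SE 0.180, edgeR adjusted p = 0.000111). Fn1 passed in neither (-0.29 and -0.20).

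Halofuginone added to Thapsigargin called 11 of 15 target genes higher and 0 lower in WT cells (median 0.86, against 22.8% and 22.5% of all genes), and 6 higher and 3 lower in PERK-/- cells (median 0.20, against 25.2% and 27.5%). Ctgf changed by 3.23 (SE 0.335, edgeR adjusted p = 4e-09) in WT and by 4.24 (SE 0.359, edgeR adjusted p = 2.23e-11) in PERK-/- cells. BtdCPU added to Thapsigargin in PERK-/- cells gave 3 higher and 6 lower (median 0.12, against 17.3% and 18.3% of all genes). Snai2 rose the most, at 1.98 (SE 0.194, edgeR adjusted p = 2.2e-09), and Snai1 fell the most, at -1.46 (SE 0.204, edgeR adjusted p = 1.18e-06).

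Of 21 contractile and cytoskeletal genes besides the 3 described above, Thapsigargin called 2 higher and 10 lower in WT cells (median -0.49), and 0 higher and 6 lower in PERK-/- cells (median -0.29). All tested genes had medians of 0.02 and 0.05, with 22.7% and 12.7% lower. Halofuginone gave a mixed picture, with 6 higher and 5 lower in WT cells (median 0.06) and 7 and 4 in PERK-/- cells (median -0.05), where all genes had medians of 0.00 and 0.00. Over all genes 34.7% rose and 33.4% fell in WT cells, and 21.2% and 21.0% in PERK-/- cells. With Halofuginone in WT cells Zyx, the focal adhesion protein zyxin, rose by 1.71 (SE 0.173, edgeR adjusted p = 3.1e-10), while beta-actin (Actb) changed by -1.44 (SE 0.147, edgeR adjusted p = 3.95e-10). Myl9, the regulatory myosin light chain, changed by -1.18 (SE 0.198, edgeR adjusted p = 1.1e-05) with Thapsigargin and -0.89 (SE 0.197, edgeR adjusted p = 0.000197) with Halofuginone in WT cells. Between the untreated lines 3 of the 21 genes were higher and 5 lower in PERK-/- cells (median -0.27), against 24.6% and 24.9% of all genes. Myl9 was among the higher, by 1.35 (SE 0.197, edgeR adjusted p = 9.07e-07), with Actg2 and with Des, which lay near 0, and Cald1, the caldesmon gene, had the largest fall, at -0.93 (SE 0.125, edgeR adjusted p = 2.09e-07). Lmod1, the leiomodin gene among the smooth muscle markers, had the largest fall with Halofuginone added to Thapsigargin in PERK-/- cells, at -2.55 (SE 0.385, edgeR adjusted p = 1.41e-06). Actg2, whose protein is nearly identical to that of Acta2, read 25.5 to 187 CPM as group means, and how the counting divided reads between actin genes is not given in the sources used here.

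**Figure D5:**
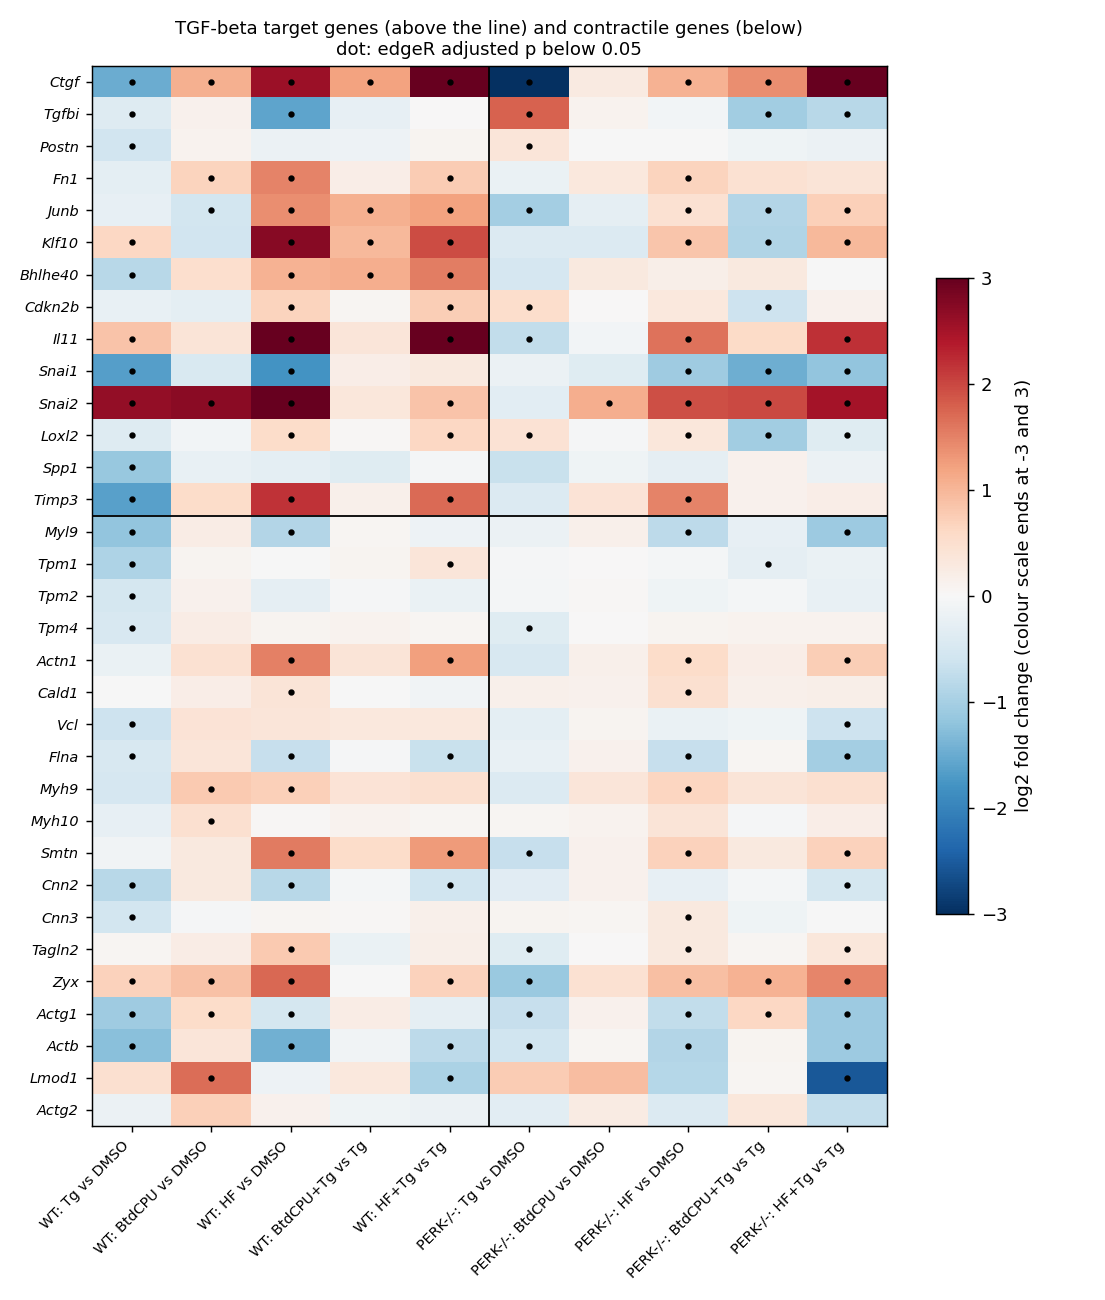
Log2 fold change (colour, ends at -3 and 3) of 14 TGF-beta target genes and of contractile genes in 5 comparisons of each genotype, with dots where the edgeR adjusted p is below 0.05. Myh11 and Des, with an average log2 CPM below 0, are not drawn. Ctgf is blue with a dot for Thapsigargin in both genotypes (-1.49 and -3.77) and red with a dot where Halofuginone is added to it (3.23 and 4.24).

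Other parts of the signalling chain moved unevenly. The type II receptor gene Tgfbr2 changed by -0.91 (SE 0.205, edgeR adjusted p = 0.000461) with Thapsigargin in WT cells and by 0.82 (SE 0.203, edgeR adjusted p = 0.00236) in PERK-/- cells, and these differed by 1.74 (SE 0.289, edgeR adjusted p = 1.43e-05). The compounds added to Thapsigargin gave PERK-/- cells changes of -0.86 (SE 0.204) with BtdCPU and -0.80 (SE 0.203) with Halofuginone. Tgfbr3, the co-receptor betaglycan, had the largest fall of the 5 tested receptors with Thapsigargin in WT cells, at -1.70 (SE 0.126, edgeR adjusted p = 1.59e-12). Smad3 rose with Halofuginone by 1.35 (SE 0.156, edgeR adjusted p = 5.16e-09) in WT and 0.68 (SE 0.155, edgeR adjusted p = 0.000656) in PERK-/- cells, and of the 4 SMAD mediators 3 and 4 rose and 0 fell. Over all tested genes the shares that rose were 34.7% and 21.2%. Of 10 further inhibitors, Halofuginone added to Thapsigargin called 6 higher and 0 lower in WT cells (median 0.54) and 6 and 3 in PERK-/- cells (median 0.52), against 22.8% and 25.2% of all genes higher and 22.5% and 27.5% lower. The rises were led by the genes of the ubiquitin ligases Smurf2 at 1.17 (SE 0.134, edgeR adjusted p = 2.58e-08) in WT cells and Smurf1 at 1.65 (SE 0.160, edgeR adjusted p = 3.45e-10) in PERK-/- cells. Smad6, the other inhibitory SMAD, had the largest fall in PERK-/- cells, at -2.49 (SE 0.398, edgeR adjusted p = 3.51e-06), where WT cells read 0.44 (SE 0.381, edgeR adjusted p = 0.363). Halofuginone alone changed Smad6 by -1.99 (SE 0.399) in WT and -2.40 (SE 0.428) in PERK-/- cells, both called.

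SRF itself (Srf) changed by -0.52 (SE 0.120, edgeR adjusted p = 0.000655) with Thapsigargin in WT cells and by -1.20 (SE 0.122, edgeR adjusted p = 4.1e-09) in PERK-/- cells, and these differed by -0.68 (SE 0.170, edgeR adjusted p = 0.00180). BtdCPU added to Thapsigargin raised it in PERK-/- cells by 0.94 (SE 0.121, edgeR adjusted p = 2.9e-07). A list drawn up around SRF held 7 genes: Srf, Mkl1, Mkl2, Myocd, Fhl2, Cyr61 and Ankrd1. It was not confined to SRF and its cofactors, so its counts do not describe these alone. Thapsigargin alone in PERK-/- cells called 0 higher and 4 lower (median -0.76). The addition of BtdCPU called 5 higher and 0 lower (median 1.10). Among the 5 was Myocd, which stayed at or below 0.953 CPM in every library. The cofactor genes Mkl1 and Mkl2 were not called with the addition (-0.08 and -0.33). Over all genes 17.3% rose with the addition and 12.7% fell with Thapsigargin, with medians of -0.04 and 0.05. Acta2 did not pass in either comparison (0.23 and -0.08), and any part of the CArG-like matches in its promoter was not tested. Cyr61, a matricellular gene on that list, had the largest fall of the list with Thapsigargin in PERK-/- cells, at -2.06 (SE 0.232, edgeR adjusted p = 3.35e-08).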

How the data were processed

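Total RNA behind 36 MEF libraries was sequenced on DNBSEQ after a strand-specific preparation, per the labels' protocols. Values deposited by the authors are estimated counts with no scaling across samples. Build GRCm39 and DESeq are named in the submitters' processing notes, and the aligner and counter are not given in the sources used here. A value of 0.025 stood in place of 0 (50.6% of values). Counts were rounded, 27 entries with dates for names (0.206 to 0.278% of a library's counts) were left out, and 39 repeated symbols were summed.

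The test was that of edgeR 4.0.16 under R 4.3.3 (filterByExpr, TMM, 12 group means, quasi-likelihood F test, Benjamini-Hochberg over 16065 genes within each of 18 comparisons). CPM uses TMM-scaled totals. Per-kb values use the merged length of all annotated exons of a gene in GENCODE M21, not the length of the transcripts made. The SE is the absolute log2 fold change over the square root of F. On simulated counts for WT Thapsigargin against DMSO (15882 genes), 94% of 100 genes changed by a log2 value of 1 and 100% of 100 changed by 2 were recovered, with 8 false calls. Libraries of a group differed beyond counting noise (chi-square per degree of freedom at least 9.06), so none repeated another. Same-numbered libraries deviated together (every correlation above 0.1) in WT cells for BtdCPU with Thapsigargin against Thapsigargin (0.159, 0.312 and 0.337) and Halofuginone with Thapsigargin against Thapsigargin (0.162, 0.201 and 0.308), so the block is given beside those results where it changes a call.

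The members, gene lists and tests were chosen with earlier results of these data known. Genes named are the 9 members, the readouts Ctgf, Fn1, Postn, Tgfbr2, Smad3, Srf and Myl9, the genes with the largest called rise and fall of a list in the comparisons described, and up to 3 most alike in group means. Some genes that this rule names are not reported here. Values of other genes outside the comparison in which they led a list, such as Il11 in PERK-/- cells, were picked after they were seen. Alternatives were DESeq2 1.42.0, RLE or unscaled library sizes, no filter, fits to the compared groups alone, a replicate block and each library left out.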

Additional observations from a re-analysis of the deposited data

Results flagged for a closer look

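In 14 cases a gene's response to a treatment differed between PERK-/- and WT cells by an edgeR test of the difference itself (adjusted p below 0.05). Each value is the PERK-/- minus the WT log2 change. For Thapsigargin against DMSO it was 2.56 for Tgfb3, 0.62 for Tgfbr1, -1.36 for Smad7 and -1.16 for Skil. For Halofuginone against DMSO it was -2.21 for Tgfb2, 1.03 for Tgfb3, -1.02 for Smad7 and -1.74 for Skil. Tgfb3 there ended at similar means, 8.64 CPM in WT and 8.77 in PERK-/- cells, from DMSO means of 61.6 and 30.6 CPM. Its difference of 1.03 thus follows the unequal starting levels. For BtdCPU added to Thapsigargin it was -1.32 for Tgfb2, -1.91 for Tgfb3 and -0.81 for Tgfbr1. For Halofuginone added to Thapsigargin it was -0.87 for Tgfb2, -1.31 for Tgfb3 and -0.70 for Tgfbr1. Over all tested genes the shares that differed in these comparisons were 38.1%, 35.0%, 20.8% and 32.7%, in the same order. Of these 14, 13 were called with each library left out in turn, and the Tgfb2 difference for added Halofuginone was lost without any of 8 of 12 libraries (-1.14 to -0.66). The comparisons of added compounds share their Thapsigargin libraries with the Thapsigargin comparison, so the values for Tgfb3 and Tgfbr1 are not independent of each other. The 2 lines also differ in Xist, so PERK and other differences between the lines cannot be told apart.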

How the results depend on the processing

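Over DESeq2, RLE factors, unscaled library sizes, no filter, fits to the compared groups alone and the replicate block, 898 of 972 single-gene results kept their direction and side of the threshold, 65 passed newly, 9 were lost and 0 reversed. With each library left out, 1172 of 1242 were kept, 22 gained, 48 lost and 0 reversed. For BtdCPU in WT cells the count of 3 genes became 6 without the filter, 7 with the replicate block and 0 in a fit to those groups alone, with a range of 0 to 8 over libraries left out. For BtdCPU added to Thapsigargin in WT cells the count of 1 became 2 without the filter and 0 with those groups alone, and 0 to 1 over libraries left out. For BtdCPU in PERK-/- cells the count of 0 became 1 without the filter, 2 with the block and 1 with those groups alone. Over libraries left out the count was 2 to 5 for Halofuginone in PERK-/- cells, 4 to 5 for Halofuginone added to Thapsigargin there, and 3 to 5 for Halofuginone against BtdCPU there. For the genotype difference in the BtdCPU response the count of 0 became 1 without the filter, and 0 to 1 over libraries left out. The cause was not tested.

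With the replicate number as a block within genotype, the count rose from 3 to 6 for PERK-/- against WT in DMSO and from 3 to 6 for the genotype difference in the response to added Halofuginone. Such a block pairs no libraries across genotypes and only removes spread between numbers within each, so neither is a paired result. In the 2 paired comparisons it changed no call other than that of Acta2. Elsewhere the correlations over all genes did not show that numbers pair the libraries. For Acta2, Tagln and Smad7 in WT cells the numbers did keep 1 order in all 6 groups. Unpaired tests of these 3 genes therefore carry that shared spread. In all, the block made 28 new calls, mostly of Acta2, Tagln and Smad7, and lost 0.

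Unscaled library sizes moved the median log2 change over all genes from 0.00 to -0.11 for Halofuginone in WT cells, from 0.00 to 0.10 for its genotype difference, and from -0.05 to -0.13 for the genotype difference with added BtdCPU. The share of called genes that were higher moved from 58.1% to 45.1% for BtdCPU in WT cells, from 55.9% to 80.7% for BtdCPU added to Thapsigargin there, and from 51.6% to 41.4% for the genotype difference with added BtdCPU. Under this scaling 4 calls were gained and 0 lost. Cnn1, at 2.02 to 11.5 CPM as group means, and Tgfb2, from 4.41 CPM, carry the most counting error of the 9.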

Other observations

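The bone morphogenetic protein (BMP) arm, the branch of the same receptor family that signals through SMAD1, SMAD5 and SMAD9, was read from 11 tested genes. Halofuginone in WT cells called 7 higher and 0 lower (median log2 change 0.78, against 0.00 over all tested genes, of which 34.7% rose), and added to Thapsigargin 8 higher and 0 lower (median 0.69, against 22.8% of all genes). PERK-/- cells with Halofuginone had 1 higher and 2 lower (median -0.08, against 21.2% and 21.0% of all genes), and added to Thapsigargin 4 higher and 2 lower (median 0.43, against 25.2% and 27.5%). The genotypes differed in the Halofuginone response in 9 of 11, 8 of them lower in PERK-/- cells (median -1.01, against 17.5% of all genes). The list includes Nog and Grem1, which encode secreted BMP antagonists, so its counts do not give a direction of signalling. Nog was called higher in both WT comparisons, with an average log2 CPM of only -0.009. Grem1 was the 1 gene higher in PERK-/- cells with Halofuginone (0.96) and the 1 higher in the genotype difference (0.87). Id3, encoding an inhibitor of DNA binding that BMP signals induce, changed by 1.12 (SE 0.183, edgeR adjusted p = 2.98e-06) in WT and -1.26 (SE 0.186, edgeR adjusted p = 1.97e-06) in PERK-/- cells. The ligand gene Bmp4 changed by 2.21 (SE 0.691, edgeR adjusted p = 0.00577) and -0.65 (SE 0.337), the latter not called, and was higher in untreated PERK-/- cells by 5.52 (SE 0.530, edgeR adjusted p = 2.54e-10). Its average log2 CPM over all libraries was 2.49, and its untreated WT level lay far below that of PERK-/- cells. Both its WT rise and its difference between the lines therefore rest on low WT counts. Id3, Bmp4, Nog and Grem1 were picked for naming after their values were seen.

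Of 10 tested carriers and activators of latent TGF-beta, Thapsigargin called 0 higher and 7 lower in WT cells (median -0.86, against 22.7% of all genes lower), and 1 and 2 in PERK-/- cells (median -0.18, against 15.2% and 12.7%). Thrombospondin 1 (Thbs1), which releases active ligand, had the largest fall in WT cells, at -1.30 (SE 0.310, edgeR adjusted p = 0.000888), and changed by -1.13 (SE 0.309, edgeR adjusted p = 0.00579) in PERK-/- cells. Halofuginone added to Thapsigargin gave WT values of 1.58 (SE 0.313, edgeR adjusted p = 0.000114) and 0.16 (SE 0.306) in PERK-/- cells, and these differed by -1.42 (SE 0.434, edgeR adjusted p = 0.0112). The integrin gene Itgb5 had the largest fall with Halofuginone in WT cells, at -2.37 (SE 0.110, edgeR adjusted p = 1.68e-17), and Ltbp2, encoding a matrix protein related to the latent TGF-beta carriers, was the lowest relative to WT in untreated PERK-/- cells, at -3.83 (SE 0.400, edgeR adjusted p = 1.67e-09). In the untreated lines 1 of the 10 was higher and 5 were lower in PERK-/- cells, the higher being Nrros, a gene near 0 that is given without a fold, against 24.6% and 24.9% of all genes.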
